A study of Mus musculus with 6 samples.

Results

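Integrin subunits and the adaptors and kinases that gather at their tails were followed in mouse embryonic fibroblasts with and without Lasp1. The set was a list of 42 gene symbols, 19 integrin subunits and 23 adaptors and kinases, and a member counted as measured where its symbol named a probe in the platform annotation. By that rule 37 of 42 members were measured among 19057 genes, namely 18 integrin subunits and 19 adaptors and kinases. Itga10, Ptk2, Tes, Tgfb1i1 and Nedd9 matched no probe and were not analysed here. Where a gene had several probes, the one of highest mean log2 intensity across the 6 arrays, called the brightest, stood for it.

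Integrins are receptors made of an alpha and a beta subunit that span the cell membrane. Outside the cell they bind collagens, laminins, fibronectin and other matrix proteins. Inside, talins and kindlins bind the beta tail and switch the receptor on, vinculin and the ILK, PINCH and parvin complex tie it to actin, and kinases such as FAK, PYK2 and SRC act with the scaffolds paxillin and p130Cas. In fibroblasts these proteins assemble into focal adhesions, through which the cell pulls on its substrate and moves.

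The cells were embryonic fibroblasts of the C57Bl/6NCr strain, either Lasp1+/+ (wild type) or Lasp1-/- (Lasp1 knockout), with 3 Illumina bead arrays of total RNA for each genotype. LASP1 is an actin-binding protein with a LIM and an SH3 domain that is itself found at focal adhesions, and the series title links its loss to cell migration and tumour formation. How many embryos or cultures stood behind the arrays, the passage of the cells and the way the allele was made are not given in the labels. All p-values therefore measure the spread between these arrays, which may be technical.

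The targeted gene followed the labels. Lasp1 read 135295, 148208 and 148809 intensity units in the wild-type arrays and 51904, 51019 and 49769.9 units in the knockout arrays. The knockout mean was 35.3% of the wild-type mean, a log2 difference (knockout minus wild type, as throughout) of -1.50 ± 0.07 (SE, n = 3 arrays per genotype, limma adjusted p = 1.17e-05). An exact permutation test (two-sided) gave p = 0.1, the smallest that 3 arrays against 3 can give. Every array had a median of 1000 units over 45281 probes. The lowest value of any array was 593 units, so dim probes stand on a floor and their fold changes are compressed. A probe below 1.5 times the median in both genotypes is called near background. Among the knockout arrays, replicate 1 was the highest for 23 of the 37 members, against 8 for replicate 2 and 6 for replicate 3. In wild type the counts were 12, 16 and 9. The same counts over all genes were not taken. Over all probes the upper quartiles were 2041, 2330 and 2112 units in wild type and 2283, 2018 and 2083 units in the knockout. The arrays therefore differed at the bright end despite equal medians.

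The labelled cell type was checked against 13 fibroblast markers. None was near background, and 6 of them fell in the knockout, namely Col1a2, Lum, Twist1, Pdgfrb, Dcn and Thy1. That was 46.2%, beside 4.08% of all genes that fell and 13.1% called in either direction among genes not near background. Their median log2 difference was -0.50. Col1a2 is also counted in the ligand list below. The summed intensity of the 13 markers was 1051037 to 1221582 units in the wild-type arrays and 850155 to 905146 units in the knockout arrays. In bulk RNA, fewer cells of a type and less RNA per cell cannot be told apart.

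Few members differed between the genotypes. A gene is said to have risen or fallen where its limma p, adjusted over all 19057 genes, was under 0.05. Of the 18 integrin subunits 1 rose (Itga3), 1 fell (Itgb4) and 16 did not pass. Of the 19 adaptors and kinases 0 rose, 2 fell (Tln2 and Ptk2b) and 17 did not pass. At an unadjusted p under 0.05, 1 adaptor was higher and 4 were lower, and 2 integrin subunits were higher and 1 was lower. By the same cut 1079 of all 19057 genes were higher and 2469 were lower. Over all genes 6.28% were called, 2.19% as rises and 4.08% as falls, beside 11.1% of the integrin subunits and 10.5% of the adaptors and kinases. Of members not near background 2 of 10 integrin subunits and 2 of 16 adaptors and kinases were called, beside 13.1% of the 8601 genes not near background. The median log2 difference was 0.02 over the integrin subunits, -0.03 over the adaptors and kinases and -0.02 over all genes.

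**Figure D1:**
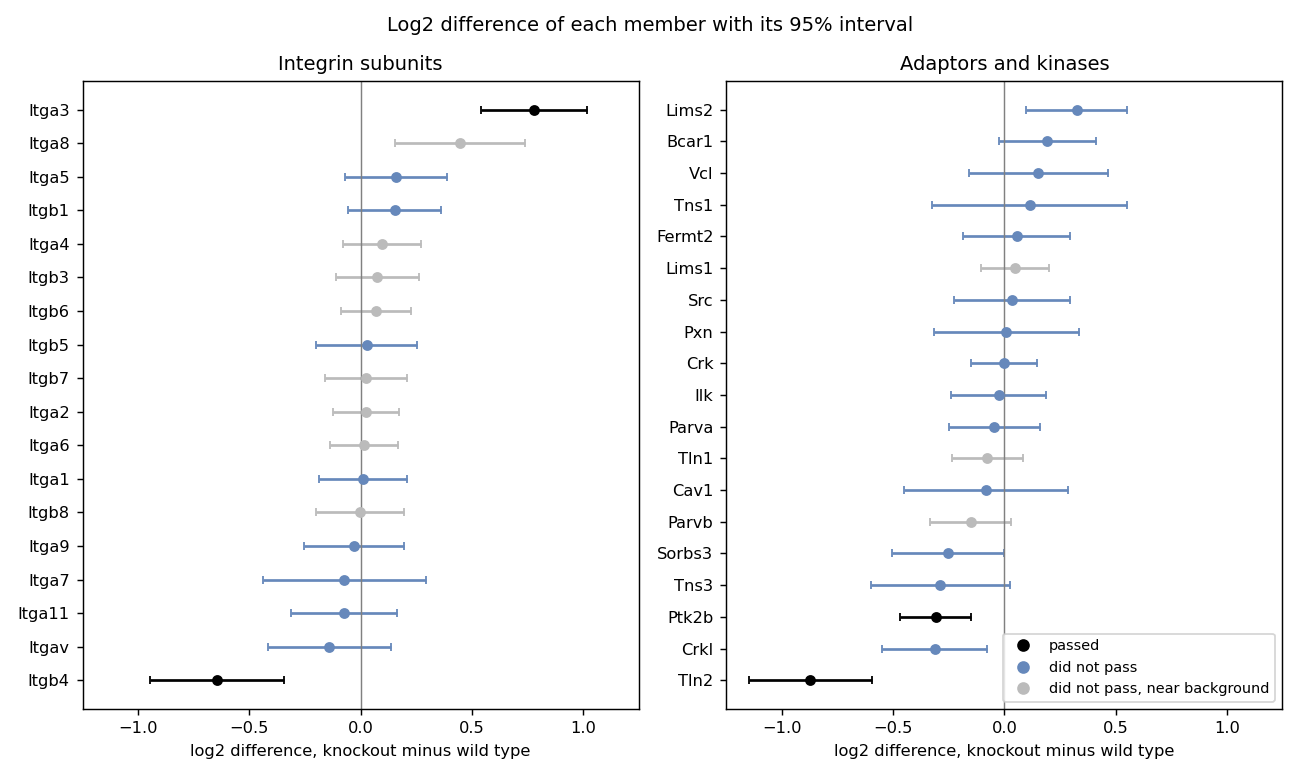
Log2 difference (knockout minus wild type) of each of the 37 measured members with its 95% interval, integrin subunits and adaptors with kinases in separate panels; black points passed at an adjusted p under 0.05, blue points did not and grey points were near background. Itga3 stands at 0.78, and Itgb4, Ptk2b and Tln2 at -0.65, -0.31 and -0.87.

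Itga3 encodes the alpha 3 subunit, which pairs with beta 1 into a laminin receptor. It read 4500.4, 4986 and 4479 units in the wild-type arrays and 9300.0, 7655 and 7128 units in the knockout arrays. Every knockout array lay above every wild-type array, and the lowest knockout value was well clear of the highest wild-type value. The mean went from 4655 ± 287 units (SD, n = 3) to 8028 ± 1133 units (SD, n = 3). That was a 1.72-fold rise, or 0.78 ± 0.11 on the log2 scale (limma adjusted p = 0.00267, 95% interval 0.54 to 1.02). Leaving out each array in turn moved the log2 difference between 0.67 and 0.86, and the rise passed each time.

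Itga3 was the only alpha subunit that passed, while its partner Itgb1 did not. Their promoters are shown because both subunits of this receptor were above background and only the alpha subunit passed. Each window holds the 250 bases before the RefSeq start on GRCm38.p6, written 5′ to 3′ on the gene's strand, for Itga3 at chr11:95076715-95076964 (minus strand) and for Itgb1 at chr8:128685404-128685653 (plus strand). Capitals mark the letters GGGCGG, the core of the GC box, and GGAATG, the core bound by TEAD factors.
Itga3: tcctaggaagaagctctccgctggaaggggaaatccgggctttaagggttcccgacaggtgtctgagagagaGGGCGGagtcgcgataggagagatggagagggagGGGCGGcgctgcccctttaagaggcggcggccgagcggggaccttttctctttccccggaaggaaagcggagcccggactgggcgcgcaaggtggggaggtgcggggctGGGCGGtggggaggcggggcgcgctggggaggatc
Itgb1: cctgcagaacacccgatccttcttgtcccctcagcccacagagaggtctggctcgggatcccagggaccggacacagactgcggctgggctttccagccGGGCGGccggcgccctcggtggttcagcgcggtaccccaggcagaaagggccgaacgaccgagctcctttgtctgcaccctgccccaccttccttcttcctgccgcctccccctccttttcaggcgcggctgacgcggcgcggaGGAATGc

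Both windows are GC-rich, at 67.6% for Itga3 and 68% for Itgb1. The Itga3 window held GGGCGG 3 times and the Itgb1 window held it once, along with a single GGAATG. Searched on both strands over 32851 RefSeq promoters of the same length, GGGCGG was in 32.7% and GGAATG in 12.6%. The TATA letters TATAAA (in 12.4% of promoters), the CArG box (in 1.47%) and the AP-1 letters TGANTCA (in 6.75%) were in neither window, and no match overlapped another. The matches describe these letters and say nothing of a factor at work. Itga3 has a further RefSeq start on the same chromosome, whose window held GGGCGG 1 time.

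Itga3 lies on chromosome 11, as Lasp1 does, with 60 tested genes between them. Of the 100 tested genes nearest to Lasp1, 50 on either side, 9% were called, a window that leaves out Itga3. Of the 200 within 100 on either side, Itga3 among them, 8% were called. Of all 1484 tested genes of the chromosome 6.47% were called. Itgb4, on the same chromosome, has 323 tested genes between it and Lasp1. The members Itgb3, Crk and Tns3 also lie there, with 204, 308 and 938 tested genes between them and Lasp1, and did not pass. Whether position bears on the difference of Itga3 or Itgb4 was not tested.

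Itgb1, the beta subunit shared by most matrix-binding integrins, read 6468, 5216 and 5503 units in wild type and 6374, 6063 and 6614 units in the knockout. The groups overlapped, and the log2 difference of 0.15 ± 0.09 did not pass (limma adjusted p = 0.454, 95% interval -0.06 to 0.36). A further Itgb1 probe above background had the opposite sign, at -0.13 ± 0.10, and its groups overlapped too. It read 2533, 2333 and 2279 units in wild type and 2457, 1896 and 2223 units in the knockout. Within arrays, the log2 difference of Itga3 exceeded that of the brightest Itgb1 probe by 0.63 (exact two-sided permutation p = 0.1, the smallest possible here; 0.2 after adjustment over 10 pairs).

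**Figure D2:**
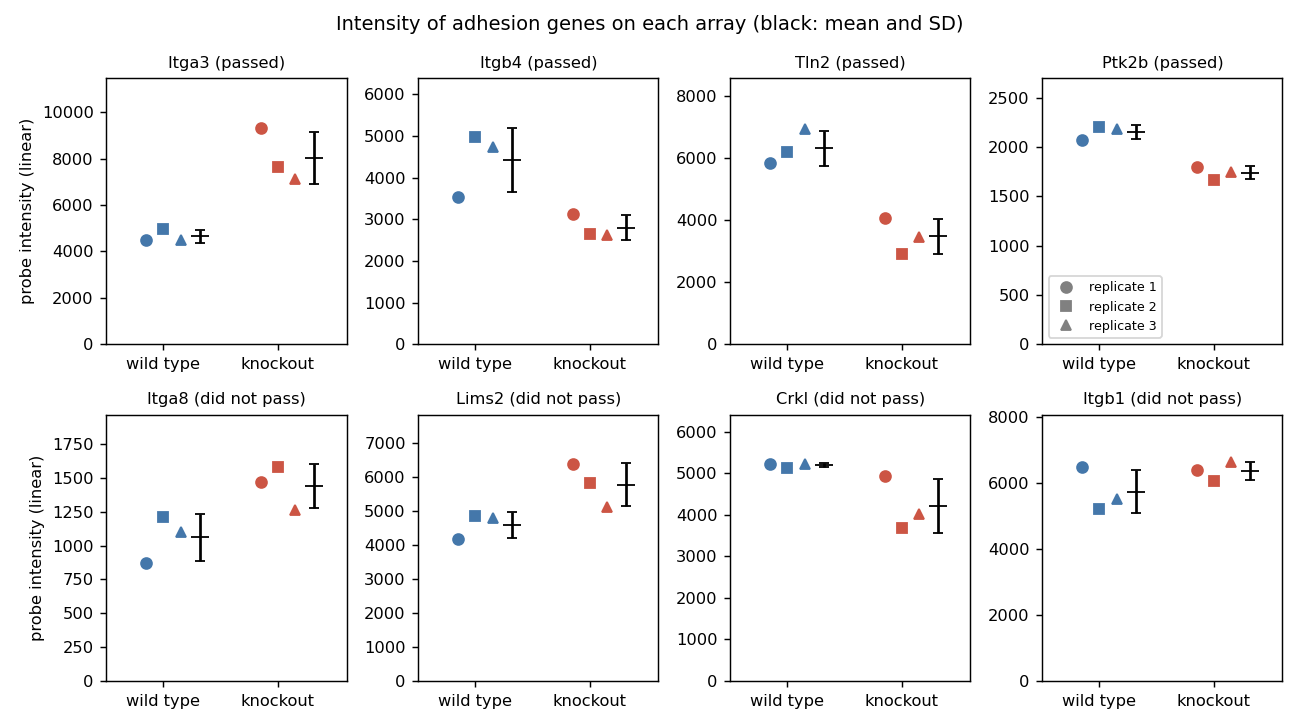
Deposited intensity (linear axis from 0) in each array for Itga3, Itgb4, Tln2 and Ptk2b, which passed the test, and for Itga8, Lims2, Crkl and Itgb1, which did not; circles, squares and triangles are replicates 1, 2 and 3, and black marks give the mean and SD. The genotypes do not overlap for any of these genes except Itgb1.

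Itgb4 encodes the beta 4 subunit, which joins alpha 6 in the hemidesmosomes of epithelia and also occurs in Schwann cells. It read 3538, 4968 and 4743 units in wild type and 3139, 2635 and 2627 units in the knockout. All knockout arrays were below all wild-type arrays, but wild-type replicate 1 and knockout replicate 1 lay near each other. Its log2 value fell by 0.65 ± 0.13, a 1.57-fold lower level (limma adjusted p = 0.0209, 95% interval -0.95 to -0.35). The call depended on single arrays. With wild-type replicate 3 left out the adjusted p was 0.122, with knockout replicate 2 left out it was 0.0919, and with knockout replicate 3 left out it was 0.123. The log2 differences of those fits were -0.59 to -0.61. After normexp background correction the adjusted p was 0.0747.

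Its partner Itga6 was near background, with 962, 956 and 999 units in wild type and 972, 965 and 1012 units in the knockout (log2 difference 0.02 ± 0.07, limma adjusted p = 0.951). The receptor's subunits are not compared, since a probe near background can show little difference. Some markers of the cell types known for Itgb4 were lower too. Of 10 measured epithelial markers 2 fell. Krt14 fell by 2.59 and Krt8 fell by 0.71 on the log2 scale, and 7 were near background, among them Epcam, Cdh1, Krt5 and Trp63. Krt18 (0.18) and the near-background Cldn4 (0.31) were higher in every knockout array without passing. The summed intensity of the 10 was 24217 to 29246 units in wild type and 12247 to 12492 units in the knockout. Of 5 measured Schwann and neural crest markers 2 fell, Sox10 by 0.60 and Mbp by 0.44 on the log2 scale, with 3 near background. Their sum was 7798 to 9404 units in wild type and 6388 to 7055 units in the knockout. The part of such cells in the fall of Itgb4 was not tested.

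Among the 16 subunits that did not pass, 8 were near background and 8 were brighter. The brighter ones were Itgb1, Itga1, Itga5, Itga7, Itga9, Itga11, Itgav and Itgb5, with log2 differences of -0.14 to 0.16 and 95% intervals that stayed within -0.44 and 0.39. Itga5, the alpha subunit of the main fibronectin receptor, read 9048, 9995 and 10483 units in wild type and 12603, 10109.8 and 10346 units in the knockout, a log2 difference of 0.16 ± 0.10. Knockout replicate 1 alone was above all wild-type arrays. After quantile normalization Itga5 passed, at 0.27 (limma adjusted p = 0.0439). Its further probe differed by 0.14, with every knockout array above every wild-type array, and did not pass. By their brightest probes the log2 differences of Itga5 and Itgb1 were 0.00 apart within arrays (exact two-sided permutation p = 1). Their within-array log2 ratio had an SD of 0.26 in wild type and 0.17 in the knockout (n = 3 each). That spread exceeds the difference of either gene, so the value cannot show that they changed alike. The further Itgb1 probe, at -0.13, was not used in this pair. Itgb5, which forms a vitronectin receptor with the alpha V subunit Itgav, had a log2 difference of 0.03.

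The collagen receptor subunits did not pass either. Itga11, whose product binds fibrillar collagen in fibroblasts, read 81066, 103594 and 88698 units in wild type and 80927, 95119 and 83009 units in the knockout, a log2 difference of -0.07. Itga1 differed by 0.01, the muscle laminin receptor subunit Itga7 by -0.07 and Itga9 by -0.03 on the log2 scale. By the brightest probe the genotypes overlapped for each of these genes. A further Itga11 probe was lower in every knockout array, at -0.60, and a near-background Itga1 probe was higher in every one, at 0.18. Neither probe passed.

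The near-background subunits were Itga2, Itga4, Itga6, Itga8, Itgb3, Itgb6, Itgb7 and Itgb8, with log2 differences from 0.00 to 0.45. At this signal over background a difference in them may not be detectable. The highest of them was Itga8, an alpha subunit that binds nephronectin with beta 1. It read 871, 1210.4 and 1098 units in wild type and 1467, 1584 and 1265 units in the knockout. All knockout arrays were above all wild-type arrays, and the log2 difference was 0.45 ± 0.13 (limma adjusted p = 0.0847). It did not pass in 9 of 13 alternatives, with adjusted p of up to 0.282 (without knockout replicate 2), and the mean of all probes gave a log2 difference of 0.24. It passed without wild-type replicate 2 (0.0207), after quantile normalization (0.0242), with array weights (0.0311) and with trend and robust estimation (0.0159). A further Itga8 probe, also near background, read 1117, 1122 and 1169 units in wild type and 1218, 1155 and 1131 units in the knockout. Its groups overlapped, with a log2 difference of 0.04 ± 0.07.

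Integrins of leukocytes and platelets served as a comparison list. All 7 of 7 were measured, 0 passed in limma (0 at an unadjusted p under 0.05), and 6 were near background. The exception was Itga2b, the platelet alpha IIb subunit, at 2123 ± 302 units (SD, n = 3) in wild type and 2234 ± 137 units (SD, n = 3) in the knockout. Of 9 measured leukocyte markers Lyz2 rose by 0.56 on the log2 scale, and 5 were near background. Their sum was 16774 to 22180.2 units in wild type and 23070.1 to 24622 units in the knockout. Of 9 endothelial markers Emcn rose by 0.62 on the log2 scale, Tek (-0.29) and Esam (-0.30) were lower in every knockout array without passing, and 7 were near background, with sums of 11256 to 11936 and 11854 to 12587 units. Of 8 measured skeletal muscle markers Acta1 rose by 1.52 on the log2 scale and 7 were near background. Another of the 8 was lower in every knockout array without passing, and their median log2 difference was -0.00375. Their sums, which include Acta1, were 10110.1 to 12129.6 units in wild type and 19039.8 to 20178 units in the knockout. The part of these cell types in the integrin values was not tested.

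Talins, the rod-like proteins that link the beta tail to actin, gave the largest difference among the adaptors. Tln2 read 5829, 6169.7 and 6926 units in wild type and 4054, 2919 and 3437 units in the knockout. No knockout array reached any wild-type array. The mean went from 6308 ± 561 units (SD, n = 3) to 3470.0 ± 568 units (SD, n = 3), and the log2 value fell by 0.87 ± 0.12, a 1.83-fold lower level (limma adjusted p = 0.00316, 95% interval -1.15 to -0.60). Leaving out each array in turn gave log2 differences of -0.99 to -0.75, and the fall passed each time. Averaging all probes of the gene gave -0.36, and 2 of its 4 probes were near background and differed by 0.07 and 0.05.

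Tln1, the widely expressed talin, is represented by a probe near background, with 1317, 1288 and 1371 units in wild type and 1215, 1247 and 1308 units in the knockout (log2 difference -0.08 ± 0.07, limma adjusted p = 0.670). Its level was therefore poorly measured.

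Ptk2b encodes PYK2, a kinase related to FAK. It read 2074, 2202 and 2182 units in wild type and 1803, 1671 and 1746 units in the knockout. The genotypes did not overlap, and the spread within each was small. The log2 value fell by 0.31 ± 0.07, a 1.24-fold lower level (limma adjusted p = 0.0344, 95% interval -0.47 to -0.15). The call was lost without wild-type replicate 2 (0.0705), wild-type replicate 3 (0.144), knockout replicate 1 (0.0527), knockout replicate 2 (0.139) or knockout replicate 3 (0.130), each an adjusted p, and was kept only without wild-type replicate 1. It was also lost after normexp background correction (-0.47, adjusted p = 0.154), with trend and robust estimation (0.0734) and with the mean of both probes (-0.14, 0.247). The other probe of Ptk2b was near background and differed by 0.03.

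A pair of adaptors had groups that did not overlap without passing the test. Lims2, which encodes a PINCH adaptor of the ILK complex, read 4153, 4835 and 4769.7 units in wild type and 6362, 5815 and 5099 units in the knockout (log2 difference 0.33 ± 0.10, limma adjusted p = 0.104, or 0.00446 after quantile normalization). Crkl, an SH2 and SH3 adaptor downstream of p130Cas, read 5235, 5134 and 5223 units in wild type and 4933, 3691 and 4022 units in the knockout (log2 difference -0.31 ± 0.10, limma adjusted p = 0.134). Knockout replicate 1 was close to wild type for Crkl, and without it the log2 difference was -0.43 with an adjusted p of 0.0223. In the paralog Crk the arrays spanned only 68785 to 70009.8 units, a log2 difference of 0.00. Compared within arrays, the log2 difference between the genotypes of Crk exceeded that of Crkl by 0.31 (exact two-sided permutation p = 0.1; 0.2 over 10 pairs).

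By the brightest probes, complete separation of the genotypes, counted regardless of the test, occurred in 3 integrin subunits (Itga3, Itga8 and Itgb4). It also occurred in 4 adaptors and kinases (Tln2, Ptk2b, Crkl and Lims2). That was 16.7% and 21.1% of the measured members, beside 21.3% of all genes.

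The remaining adaptors and kinases did not pass. Vinculin (Vcl) differed by 0.15 on the log2 scale and p130Cas (Bcar1) by 0.19. Kindlin-2 (Fermt2) differed by 0.06, the tyrosine kinase Src by 0.03, paxillin (Pxn) by 0.01, integrin-linked kinase (Ilk) by -0.03, and its partner Parva by -0.04. Caveolin-1 (Cav1), a membrane protein that meets integrins at caveolae, differed by -0.08, and vinexin (Sorbs3) by -0.25 ± 0.11 (limma adjusted p = 0.264). The tensins Tns1 and Tns3, which bind beta tails and actin, differed by 0.11 and -0.29 on the log2 scale. Tns1 rested on wild-type replicate 2, at 8266 units against 4822 and 4749 units in the other wild-type arrays. Without that array its log2 difference was 0.38 (limma adjusted p = 0.0483). Tns3 had an adjusted p of 0.0118 and a log2 difference of -0.46 without wild-type replicate 1. Bcar1 passed after quantile normalization (limma adjusted p = 0.0389). With array weights Sorbs3 (limma adjusted p = 0.0142), Tns3 (0.0337) and Parvb (0.0457) passed as falls. The 14 brighter adaptors and kinases that did not pass had log2 differences of -0.31 to 0.33, with 95% intervals within -0.60 and 0.55. Parvb, Lims1 and Tln1 were near background, at -0.15 to 0.05. All 33 uncalled members, 16 integrin subunits and 17 adaptors and kinases, had intervals that excluded a 2-fold difference in the measured intensity of the brightest probe. The limit does not extend to other processing or probes, since Itga8 had a log2 difference of 1.00 after normexp background correction and further probes of Itgav and Tns3 had 1.01 and 1.11 without wild-type replicate 2. For Itgav the choice of probe was close to a tie. The probe used had means of 4742 units in wild type and 4251 units in the knockout. The second probe had 3495 and 5510 units, and with all arrays a log2 difference of 0.71 ± 0.23.

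**Figure D3:**
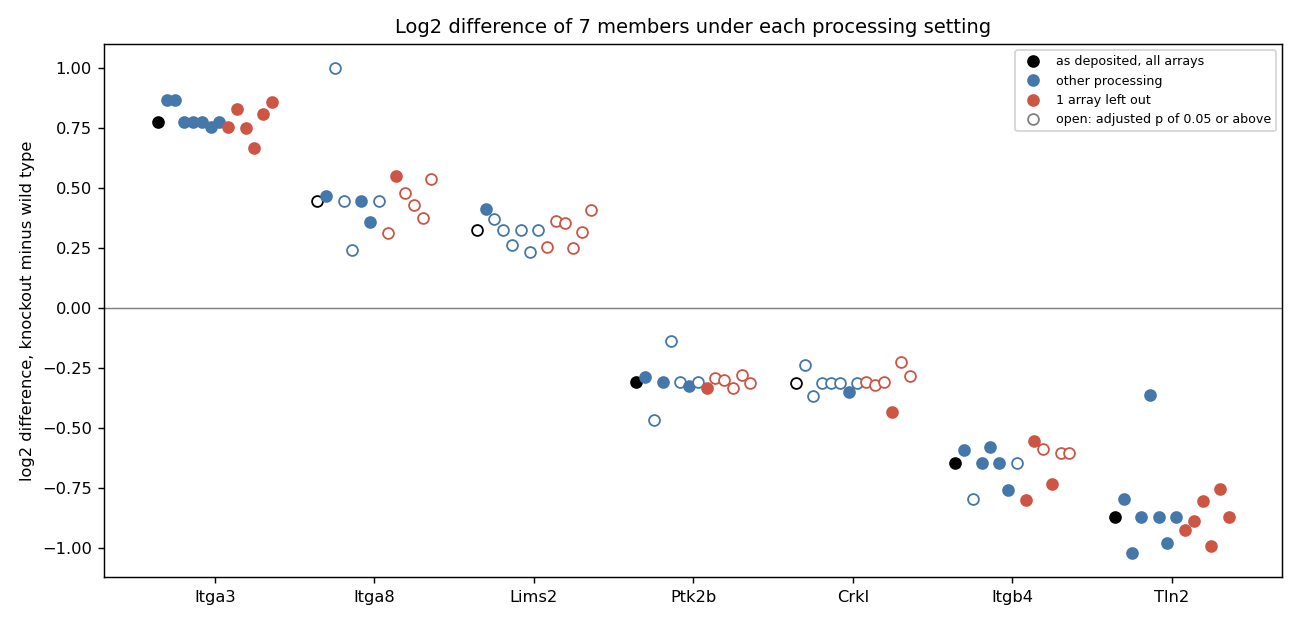
Log2 difference of Itga3, Itga8, Lims2, Ptk2b, Crkl, Itgb4 and Tln2 under each processing setting; black is the reported value, blue another way of processing, red the fit without 1 array, and open symbols mark an adjusted p of 0.05 or more. Itga3 and Tln2 stay filled throughout, whereas Itgb4 and Ptk2b turn open in several fits.

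Other probes of the same genes gave a further reading. The 37 members had 84 probes, of which 45 were near background, and 25 members had several. In a limma fit over all 34885 named probes 4.55% were called, and so were 6 of the 84 member probes. Those 6 were the 4 probes already described and 1 further probe each of Tln2 and Itgb4. The further Tln2 probe read 3369, 3501 and 2637 units in wild type and 2209, 1795 and 1879.6 units in the knockout, and fell by 0.69 ± 0.12 on the log2 scale (adjusted p = 0.0128). The further Itgb4 probe read 2416, 3091 and 2703 units in wild type and 1962, 1866 and 1915 units in the knockout, and fell by 0.51 ± 0.09 (adjusted p = 0.0154). The genotypes were separate at each. Lims2 had 3 probes above background, with log2 differences of 0.33, 0.25 and 0.22, and the knockout was higher without overlap at each of them.

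**Figure D4:**
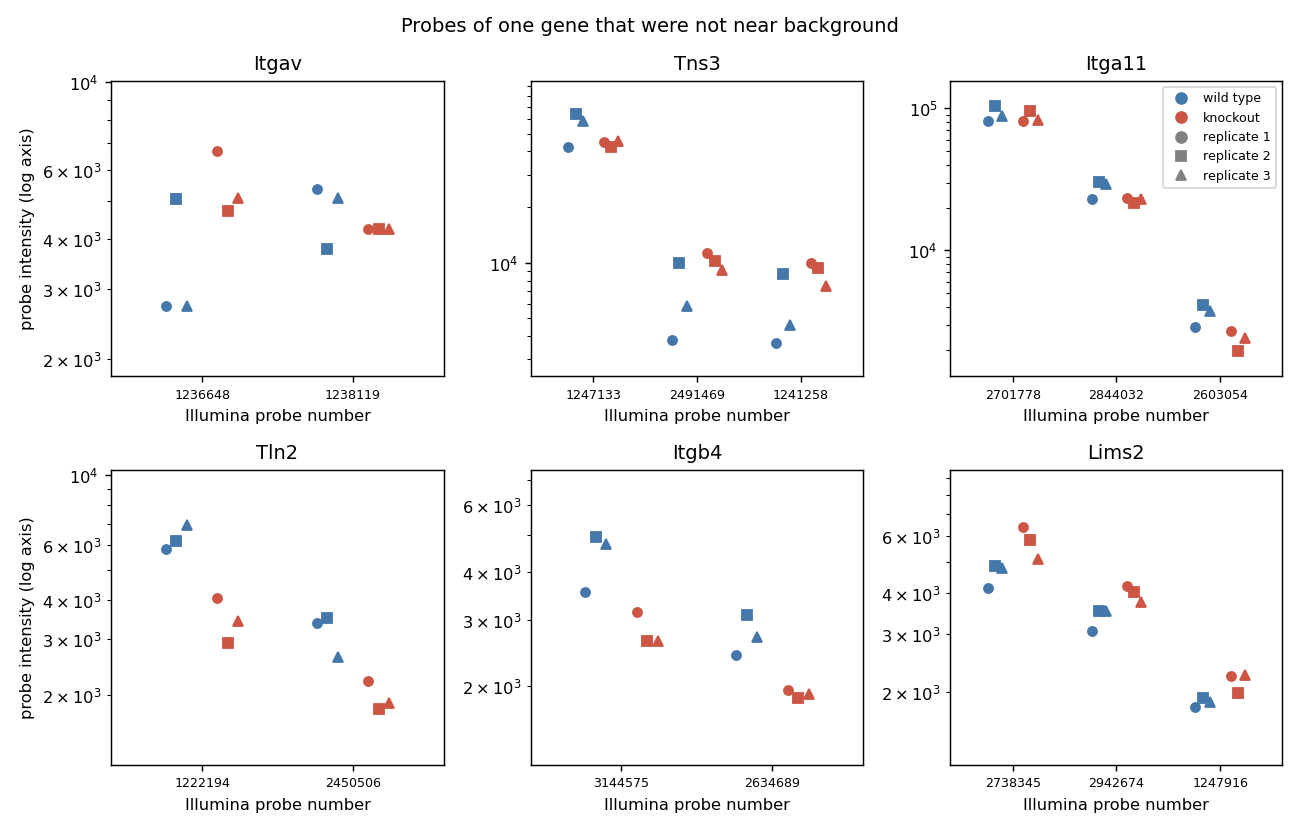
Intensity (log axis) in each array for the probes not near background of Itgav, Tns3, Itga11, Tln2, Itgb4 and Lims2, wild type beside knockout. The probes of Tln2, Itgb4 and Lims2 move the same way, and those of Itgav and Tns3 do not.

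The matrix proteins that integrins bind were followed in a list of their own. Of 39 measured ligands of 44 listed, 3 rose, 5 fell and 31 did not pass, a called share of 20.5%. The ligand median was -0.15 on the log2 scale, against -0.10 over all genes not near background. In 17 ligands, or 43.6%, the genotypes were separate. Over all genes 6.28% were called and 21.3% were separate, and over the genes not near background, to which 33 of the ligands belong, 13.1% and 31.5%. Latent TGF-beta binding protein 1 (Ltbp1) rose by 0.94 ± 0.10, bone sialoprotein (Ibsp) by 0.83 ± 0.08 and the matricellular protein Ccn2 by 0.56 ± 0.07 on the log2 scale (limma adjusted p = 0.000700, 0.000359 and 0.00218). Ibsp was near background in wild type, at 885 ± 8.38 units (SD, n = 3) against 1578 ± 117 units (SD, n = 3) in the knockout. Averaged over all probes Ltbp1 differed by 0.10 (adjusted p = 0.379) and Ibsp by 0.41 (0.0125). After normexp background correction Ibsp differed by 1.91, and Ccn2 did not pass (adjusted p = 0.0756).

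The 5 falls were those of collagen chains, laminin chains and periostin. The share of collagen and laminin chains among the 39 measured ligands was not counted, so the falls are only listed. The collagen I chain Col1a2 fell by 0.84 ± 0.17, the collagen VI chain Col6a2 by 0.73 ± 0.16, the laminin alpha 2 chain Lama2 by 0.79 ± 0.12 and the laminin gamma 1 chain Lamc1 by 0.38 ± 0.08 on the log2 scale. Periostin (Postn), a ligand of alpha V integrins, fell by 0.77 ± 0.08 (limma adjusted p = 0.000809), from 2289.6, 2526 and 2645 units to 1349.6, 1519 and 1496 units. Fibronectin (Fn1) had a log2 difference of -0.16 (adjusted p = 0.496). Leaving out wild-type replicate 3, or replicate 2 or 3 of the knockout, ended the calls of Col1a2 (adjusted p of 0.0750 to 0.0912), Col6a2 (0.115 to 0.146) and Lamc1 (0.0987 to 0.134), and Lamc1 was also lost without wild-type replicate 2 (0.0517). Averaged over their probes, Lama2 differed by -0.21 (adjusted p = 0.161), Postn by -0.29 (0.0209) and Col6a2 by -0.49 (0.104). Normexp background correction gave Postn -1.19 and ended the calls of Col1a2, Col6a2 and Lamc1 (adjusted p of 0.0614 to 0.243).

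Of 59 measured genes of a wider list of 65 adhesion plaque proteins 3 rose, 5 fell (Lasp1 included) and 51 did not pass, a called share of 13.6%. In 20 of these genes, or 33.9%, the genotypes were separate. Both shares are over all 59, of which 44 were not near background, and both count the targeted gene Lasp1. Over all genes 6.28% were called and 21.3% were separate, and over the genes not near background 13.1% and 31.5%. Enah, an Ena/VASP protein that lengthens actin filaments, rose by 1.10 ± 0.20 on the log2 scale (limma adjusted p = 0.0113), from 1465, 2352 and 1302.5 units to 4078, 3311 and 3265 units. Syndecan-4 (Sdc4), a co-receptor for fibronectin, rose by 0.55 ± 0.13. The tetraspanin Cd151, known for its tie to the alpha 3 beta 1 integrin, rose by 0.36 ± 0.08, from 37322, 42122 and 39412 units to 53344.5, 48477 and 50931 units (adjusted p = 0.0252). Another tetraspanin, Cd9, fell by 0.46 ± 0.07. Arhgap35 fell by 0.52 ± 0.10, the Rac activator Dock1 by 0.42 ± 0.07 and Itgb3bp by 0.38 ± 0.08. Zyxin (Zyx), at 0.21, and Actn1, at 0.28, did not pass (adjusted p = 0.161 and 0.152). Averaged over all its probes Enah differed by 0.39 (adjusted p = 0.0257). The same averaging ended the calls of Cd151 (0.25), Arhgap35 (-0.24), Dock1 (-0.17) and Itgb3bp (-0.13), with the log2 difference in parentheses. Normexp background correction ended those of Sdc4, Cd151, Arhgap35, Cd9, Dock1 and Itgb3bp (adjusted p of 0.0798 to 0.257). The rise of Enah was lost without wild-type replicate 3 (adjusted p = 0.0635) or knockout replicate 3 (0.0587), and that of Cd151 in 5 of the 6 fits without 1 array (0.0517 to 0.114), the fit without wild-type replicate 2 being the exception. Wild-type replicate 3 and knockout replicate 3 also decided Dock1 (0.0577 and 0.0589), Arhgap35 (0.0542 and 0.0979), Sdc4 (0.126 and 0.183) and Itgb3bp (0.134 and 0.0503). Sdc4 and Itgb3bp were lost without knockout replicate 1 (0.0972 and 0.0721) or knockout replicate 2 (0.0596 and 0.111) as well, and Arhgap35 without knockout replicate 2 (0.0712).

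**Figure D5:**
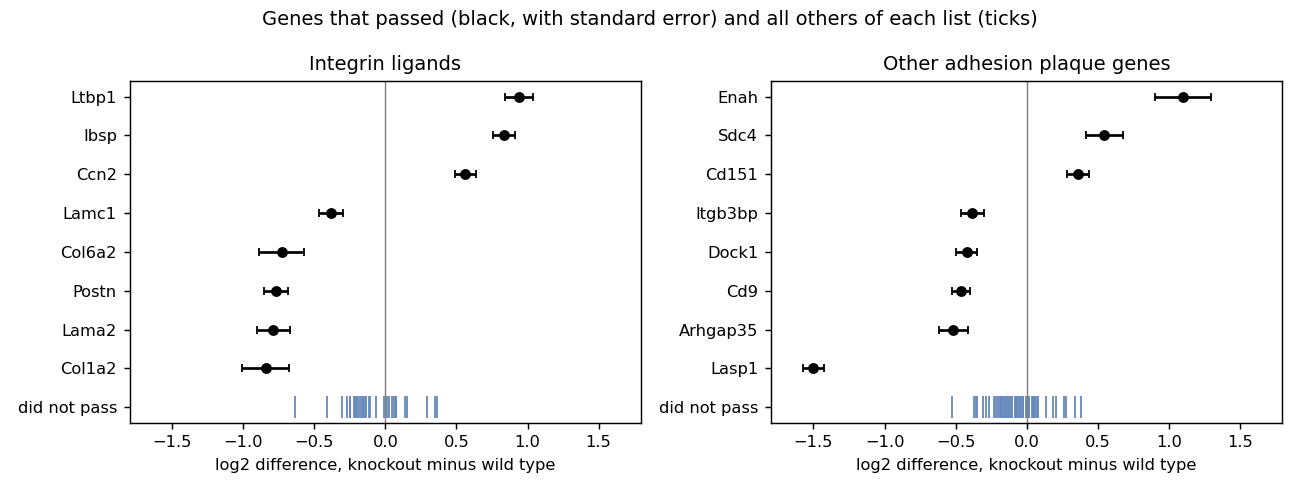
Log2 difference (knockout minus wild type) with SE for the called genes of the ligand and plaque lists, in 1 panel each, with a tick for every uncalled gene of the list. Ltbp1 (0.94) and Enah (1.10) stand highest, and Col1a2 (-0.84) and Lasp1 (-1.50) lowest.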

How the data were processed

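Total RNA was labelled as biotinylated cRNA and hybridised to Illumina arrays, per the labels' protocols. The deposited values are linear probe intensities that the authors had scaled to a median of 1000 per array, as the values show. How the arrays were scanned and the background handled is not given in the sources used here. Of 45281 probes, 34885 had 1 symbol, 18 had several and 10378 had none in the platform annotation, and 34807 were matched to RefSeq (GRCm38.p6) with 0 symbols changed.

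The limma package (version 3.58.1, R 4.3.3) was fitted to log2 intensities by lmFit and eBayes, with 4 residual and 5.13 prior degrees of freedom, 1 probe per gene, with Benjamini-Hochberg adjustment over 19057 genes. Array numbers limit the precision. Replicate numbers did not pair the arrays, and the fit has no block. Pairs were compared by exact permutation over arrays (10 of 13 pairs were measured).

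Members and lists were chosen with earlier results of these data known. Array values are given for called members, for separate uncalled members of largest difference (up to 4 per list, with a genotype mean exceeding 993, the median probe mean) and for partners of called members. Up to 4 rises and 4 falls are named per other list. The values of Itga5, Itga11, Itga2b, Fn1, Zyx, Actn1, Lamc1 and the further probes were chosen after they were seen.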

Additional observations from a re-analysis of the deposited data

How the results depend on the processing

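The rise of Itga3 and the fall of Tln2 passed under all alternatives run, with adjusted p of at most 0.0304 and 0.0338. Quantile normalization gave 1009 rises over all genes in place of 418. It gave 3 rises among integrin subunits in place of 1, 2 among adaptors in place of 0, 5 among ligands and 5 rises with 8 falls among plaque genes. Normexp background correction gave 222 rises and 316 falls over all genes, 0 falls among integrin subunits, 1 among adaptors, 2 among ligands, and 1 rise and 1 fall among plaque genes. The mean of all probes gave 1 fall among adaptors, 3 among ligands and 2 among plaque genes. Trend and robust estimation gave 2 rises among integrin subunits and 1 fall among adaptors. Array weights gave 985 rises and 2282 falls over all genes, 2 rises among integrin subunits, 6 falls among adaptors, 5 rises and 12 falls among ligands, and 6 rises and 14 falls among plaque genes. With the replicate number as a block there were 179 rises and 236 falls over all genes, 0 falls among integrin subunits, 1 among adaptors, 1 among ligands, and 0 rises and 2 falls among plaque genes. Same-numbered arrays had deviations that correlated at -0.45, -0.37 and 0.17 between the genotypes, and arrays of unlike number at -0.19 to 0.50. The numbers were therefore not taken as pairing, and the source of the shared deviations was not tested.

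Leaving out each array in turn gave 207 to 729 rises and 244 to 1217 falls over all genes. It gave 1 to 2 rises and 0 to 1 falls among integrin subunits, 0 to 1 rises and 1 to 3 falls among adaptors, 3 to 4 rises and 2 to 10 falls among ligands, 0 to 5 rises and 2 to 8 falls among plaque genes, and 0 to 0 calls among leukocyte and platelet integrins. Lasp1 stayed at -1.55 to -1.48. Itga6 ranged from -0.00493 (without knockout replicate 3) to 0.0356 (without wild-type replicate 3). Alternatives for the pairs and the leukocyte integrins were chosen after seeing the data. The causes were not tested. Signal over background limits the 11 members near background.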

Other observations

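Different probes of Itgav, Tns3 and Itga11 did not give the same reading, a comparison made after their values had been seen. The second Itgav probe read 2711, 5059.6 and 2715 units in wild type and 6699, 4729.7 and 5100.0 units in the knockout. Its log2 difference was 0.71 ± 0.23 (limma adjusted p over probes = 0.141). The Itgav probe used above had -0.14 and was nearly tied with it in mean intensity. Wild-type replicate 2 lay within the knockout range, and without it the second probe had 1.01. The brightest Tns3 probe read 42273, 64132 and 58139 units in wild type and 45041, 42160.5 and 45689 units in the knockout. Its further probes read 3811, 9974 and 5856 units against 11305, 10186 and 9157 units, and 3657, 8666 and 4605 units against 9936, 9383 and 7488 units, with log2 differences of 0.75 ± 0.28 and 0.75 ± 0.26 (limma adjusted p = 0.201 and 0.176). Without wild-type replicate 2 each had 1.11. For Itga11 the further probes had log2 differences of -0.27 and -0.60 ± 0.15 (limma adjusted p = 0.218 and 0.0581), beside -0.07 for the brightest. Which transcript each probe detects was not analysed here.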
